A study of Saccharomyces cerevisiae with 180 samples.

Results

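The 31 genes described here encode subunits of the 26S proteasome of budding yeast, the protease that degrades ubiquitin-tagged proteins. They were taken from a list of subunit names, and all 31 matched an entry of the RefSeq gene table of the R64 assembly, out of 6002 nuclear protein-coding genes. Of the subunits, 14 belong to the 20S core and 17 to the 19S cap. Every nucleosome whose centre lay in the reading frame or up to 300 bp before the start codon was read, which gave 252 of the 65032 nucleosomes with counts. No nucleosome was shared between members, and 6 nucleosomes of 6 members also lay in the reading frame of another gene. The members are short, with a median of 867 bp from start to stop codon against 1200 bp over all genes, and a range from 597 to 2982 bp.

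The proteasome cuts proteins inside a barrel made of stacked alpha and beta rings, and the beta ring carries the catalytic sites. The 19S cap has a base, whose ATPases unfold substrates and feed them into the barrel, and a lid, which removes ubiquitin. In yeast the transcription factor Rpn4 binds a shared promoter element of these genes, and Rpn4 is itself a substrate of the proteasome. Of the marks measured, H3K4me3 and H3K18ac are found at the starts of active genes, H3K36me3 is laid down over transcribed bodies by Set2 on elongating RNA polymerase II, and H3K79me3 is deposited by Dot1 over active genes. Eaf3 binds methylated K36 as part of the Rpd3S deacetylase complex, which removes acetyl groups behind the polymerase.

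The study used combinatorial indexed ChIP on nucleosomes released by micrococcal nuclease from fixed cells: a first antibody selects nucleosomes, and part of that material goes through a second antibody or is kept as Input. The labels do not define Input, and it is taken here to be what the first antibody selected with no second selection. A histone mutation set of 120 libraries covers 4 strains: H3K4R, H3K18R and H3K36R, whose H3 has arginine in place of the named lysine, and WT H3. A deletion set of 60 libraries covers 3 strains: set2, eaf3, and bar1, whose titles mark it as the wild type of that set. All strains grew in rich medium, and the labels give no further alleles or strain background. Each strain and antibody combination is 1 library, so no comparison below has a replicate and none has a p-value. The 95% intervals cover counting error only, and reads copied by PCR without molecular identifiers are not independent molecules.

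Libraries held 150 to 2693698 reads, and 32 of the 180 were under 10000. No 2 libraries were identical. The members received 349992 reads over all libraries, or 0.536% of all reads on 0.388% of the nucleosomes. SET2 had 57 reads over all set2 libraries against 2077 over those of bar1, and EAF3 had 92 reads over the eaf3 libraries against 891 over those of bar1, so both deletions were seen at their loci. The bar1 libraries held 1030 reads on BAR1, where set2 had 1050 and eaf3 1028, and only 6 on NAM7, where set2 had 1796 and eaf3 4095. By the measure used for SET2 and EAF3, the strain labelled bar1 thus kept BAR1 and was depleted of NAM7. The label bar1 is kept here, and changes in set2 and eaf3 are read against a strain that also differs from them at NAM7. What that difference does to the marks was not tested. The bar1 library of K79me3 with Input held 10044 reads, and K79me3 changes in set2 and eaf3 are therefore not given. The H3K4R library of K4me3 held 3639 reads and the H3K18R library of K18ac 37544, too few to read the lost mark gene by gene.

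A level is a log2 ratio: the CPM (reads scaled to the library total), plus 1, in the Input library of a mark over the same in the summed Input libraries of the 4 H3-first samples, which held 136472 to 420226 reads each. A level of 0 is the average of all reads per H3 read. The 5′ zone is the first 500 bp from the start codon, and the body runs from 500 bp to the stop codon. A level was kept where both libraries together held at least 20 reads, and a gene was called where it lay past 1.5-fold (0.585 on the log2 scale). H3 itself was close to that of the genome: the members had a median of 13.0 H3 reads per nucleosome in the 5′ zone against 13.3 over all genes, and 14.4 in the body against 15 over all genes.

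In WT H3, K4me3 was high over the start of every proteasome gene and stayed higher than in other genes through the first 1500 bp. The median 5′ level was 1.73 over the 31 members, against 1.07 over all genes. All 31 were over 1.5-fold above H3, where 73.4% of all genes were. In the body the members' median was 0.74 against -0.45 over all genes. Of 31 members, 17 were called higher, where 19.4% of all genes were, and 1 lower, where 45.8% were. High K4me3 of this gene list was known from an earlier reading of the same libraries and is not independent evidence.

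The zero of these levels depends on the scaling. With median-of-ratios size factors in place of library totals the medians of all genes moved by -0.32 for K4me3, -0.21 for K18ac and 0.20 for K36me3 in the 5′ zone, and by nearly as much in the body. The members moved with them, so comparisons with all genes stand, while calls shift. Under that scaling 13 members were called higher and 3 lower in K4me3 of the body, 6 higher and 9 lower in K18ac of the body, and 6 higher and 2 lower in K36me3 of the 5′ zone.

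Among the subcomplexes, the 7 genes of the 20S beta ring had a median 5′ K4me3 level of 1.85. PRE4 (YFR050C, chromosome VI, 249066 to 249866), which encodes a beta subunit, had the highest level of any member, with 161 K4me3 reads against 44 H3 reads, a level of 2.16 (interval 1.69 to 2.70). The alpha ring, which gates the barrel, had a median of 1.74 over 7 genes, and its levels ran only from 1.19 to 1.90. The 6 ATPases of the base had a median of 1.44. The 3 other base subunits, RPN1, RPN2 and RPN10, had levels of 1.92 to 2.00. RPN1 (YHR027C, chromosome VIII, 161730 to 164711), a scaffold that docks ubiquitin receptors, had 118 K4me3 reads against 36 H3 reads.

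The lid had the lowest 5′ median of K4me3, 1.29 over 8 genes, and the widest spread. RPN5, a scaffold subunit of the lid, reached 2.03 with 131 reads against 39. RPN12 (YFR052W, chromosome VI, 252505 to 253329), also a lid subunit, had the lowest level of any member, 0.64 (0.14 to 1.17), with 76 reads against 60. RPN11, which encodes the deubiquitinase of the lid, had 0.89, and RPT2, a base ATPase, had 0.98. The intervals of RPN12 and PRE4 do not overlap, while those of neighbours in the order do.

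**Figure D1:**
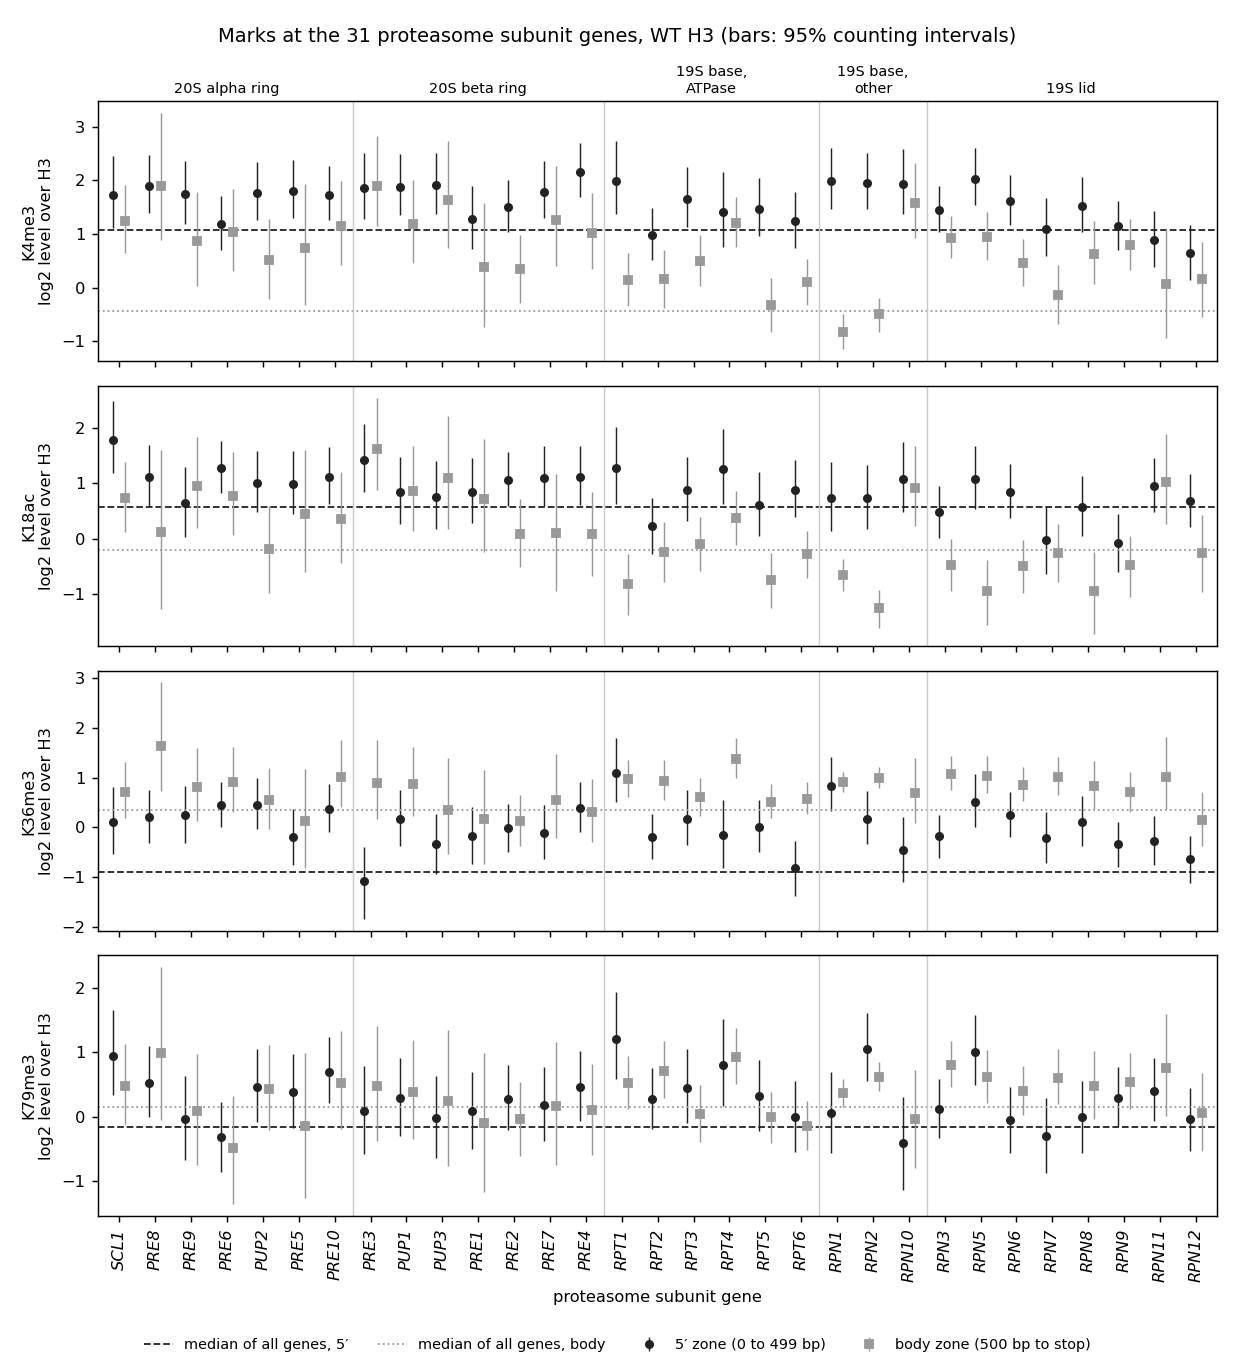
Log2 level over H3 of K4me3, K18ac, K36me3 and K79me3 (rows) at each of the 31 genes in WT H3, grouped by subcomplex; circles are the 5′ zone, squares the body, bars are 95% counting intervals, and lines are medians of all genes. All 31 circles for K4me3 lie above 0.585, between 0.64 and 2.16, and 30 of the 31 circles for K36me3 lie above the all-gene median of -0.90.

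In the body, K4me3 was lowest in the 2 longest members, RPN1 at -0.82 (-1.16 to -0.50) and RPN2 at -0.50 (-0.83 to -0.19), followed by RPT5, a base ATPase, at -0.32. The highest levels were in short 20S genes. PRE3, a catalytic beta subunit, had 1.89 (1.14 to 2.83) with 53 K4me3 reads against 17 H3 reads, PRE8, an alpha subunit, had 1.89, and PUP3, a beta subunit, had 1.63. The body zone of a short gene lies nearer to the start codon, so reads were also pooled by distance.

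At equal distance the members still held more K4me3 than other genes. Between 300 and 500 bp the pooled level was 1.67 (1.54 to 1.80) in the 31 members and 1.01 in other genes. Between 750 and 1000 bp it was 0.44 (0.25 to 0.63) in the 20 members with a nucleosome there, against -0.23 in other genes. Past 1500 bp, where only RPN1 and RPN2 had nucleosomes, it was -1.79 (-2.17 to -1.43) against -1.94, a difference within the interval. With the body zone stopped at 1000 bp, the members' median was 0.90 against 0.13 over all genes. That difference, 0.77, is smaller than the 1.19 of the full body zone.

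K36me3 was higher early in the reading frame of the proteasome genes. The 5′ median was 0.02 in the members against -0.90 over all genes, and only 3 of 31 members were over 1.5-fold below H3, where 62.8% of all genes were. Those 3 were PRE3 at -1.07 (38 K36me3 reads against 31 H3 reads), RPT6, a base ATPase, at -0.81 and RPN12 at -0.64. The 2 called higher, where 3.62% of all genes were, were RPT1, a base ATPase, at 1.10 (0.51 to 1.81) with 146 reads against 25, and RPN1 at 0.84. RPN5 followed at 0.52. The group medians ran from -0.20 in the lid to 0.24 in the alpha ring.

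By distance, the K36me3 level of the members passed 0 between 300 and 500 bp, where it was 0.57 (0.44 to 0.69) against -0.27 in other genes. In the last 150 bp before the start codon it was -1.48 (-1.87 to -1.09) against -1.79 in other genes, a difference within the interval. From 500 bp on it was 0.83 to 0.89 in the members, against 0.19 to 0.51 in other genes.

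In the body 21 of 31 members were called higher in K36me3, where 32.8% of all genes were, and none was below 0. The members' median was 0.82 against 0.36 over all genes. The group medians were 0.94 in the lid, 0.91 in RPN1, RPN2 and RPN10, 0.80 in the alpha ring, 0.77 in the ATPases and 0.35 in the beta ring. The highest levels were PRE8 at 1.64, RPT4, a base ATPase, at 1.37 and RPN3, a lid subunit, at 1.08. The lowest were PRE2, a catalytic beta subunit, and PRE5, an alpha subunit, both at 0.12, and RPN12 at 0.15. RPN12 was thus at or near the low end of the members in K4me3 at its start and in K36me3 in both zones. Its K4me3 and K36me3 levels at the start divide by the same 60 H3 reads.

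**Figure D2:**
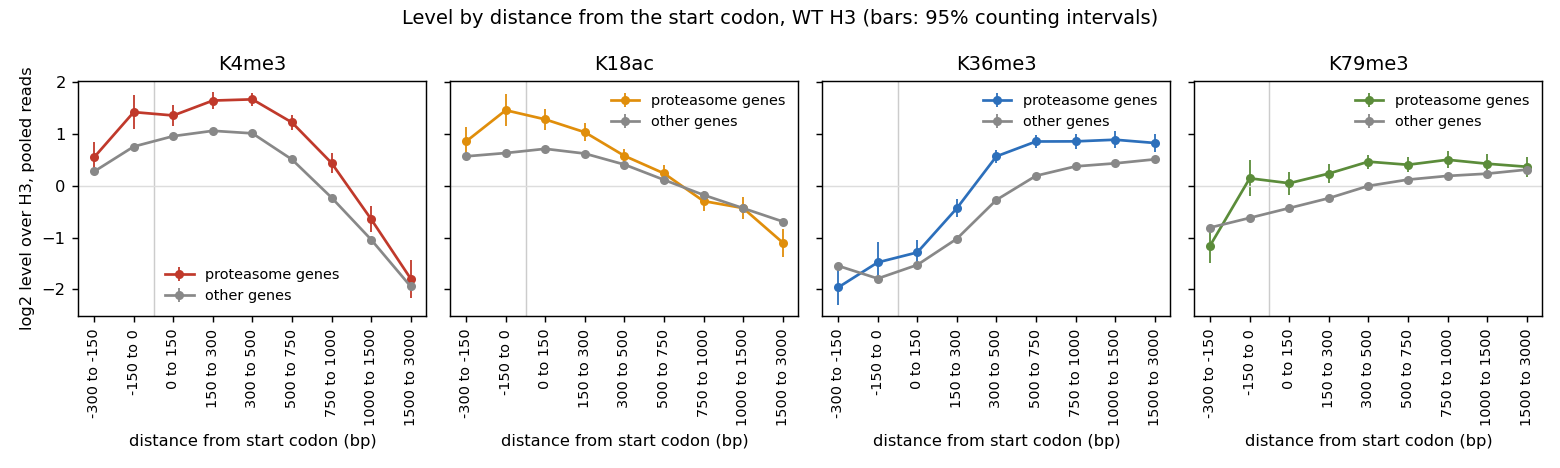
Pooled log2 level over H3 against distance from the start codon in WT H3, for the proteasome genes (coloured) and all other genes (grey); points are bins of nucleosome centres and bars are 95% counting intervals. K4me3 of the proteasome genes lies above that of other genes up to 1500 bp, K36me3 is already at 0.57 between 300 and 500 bp against -0.27, and K18ac starts higher and falls more steeply.

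K18ac was steeper along the members than along other genes. In the last 150 bp before the start codon its pooled level was 1.46 (1.15 to 1.78) in the members against 0.63 in other genes. Between 750 and 1000 bp it was -0.30 (-0.50 to -0.10) in the members against -0.18 in other genes. The 5′ zone had a median of 0.89 against 0.58 over all genes, with 26 of 31 members called higher, where 49.4% of all genes were. In the body the median was 0.08 against -0.21 over all genes. That body excess of 0.29 had an interval of -0.07 to 0.66, which holds 0, and was 0.05 with a minimum of 50 reads. In the body 9 members were called higher, where 15.5% of all genes were, and 6 lower, where 28.4% were.

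K18ac medians were higher in the rings of the core than in the cap. In the 5′ zone they were 1.11 in the alpha ring and 1.06 in the beta ring, then 0.88 in the ATPases, 0.74 in the 3 other base subunits and 0.63 in the lid. SCL1, which encodes an alpha subunit, had the highest level, 1.78 (1.19 to 2.48), with 105 K18ac reads against 27 H3 reads. PRE3 followed at 1.41 and PRE6, an alpha subunit, at 1.28. The lowest were the lid subunits RPN9 at -0.08 and RPN7 at -0.03, and RPT2 at 0.23.

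In the body the beta ring had a K18ac median of 0.71 and the lid one of -0.47, and gene length differs between these groups as well. RPN2 (YIL075C, chromosome IX, 217863 to 220700), the second scaffold of the base, was lowest at -1.25 (-1.60 to -0.92), with RPN8 and RPN5 at -0.94 each. PRE3 was highest at 1.62, with PUP3 and RPN11 next. PRE3 was at the top of the members in body K4me3, level with PRE8, and in body K18ac, and at the bottom in K36me3 at its start. Both of its body levels divide by the same 17 H3 reads, and PRE3 had the fewest H3 reads per nucleosome of any member, 8.5. Its top ranks are therefore not independent.

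K79me3 of the members lay above the genome in the 5′ zone, and less clearly so in the body. Its 5′ median was 0.28 against -0.16 over all genes, and 6 of 31 members were called higher, where 8.03% of all genes were. RPT1 at 1.20, RPN2 at 1.05 and RPN5 at 1.00 were highest. RPN10, a ubiquitin receptor, at -0.41, PRE6 at -0.31 and RPN7 at -0.29 were lowest. In the body the median was 0.40 against 0.16 over all genes, and 8 members were called higher, where 12.4% of all genes were. That body excess had an interval of -0.07 to 0.37, which holds 0, and was 0.05 with the H3 library of WT H3 alone. PRE8 at 0.99, RPT4 at 0.92 and RPN3 at 0.81 led, as they did for K36me3, while PRE6 at -0.50, PRE5 at -0.15 and RPT6 at -0.14 were lowest. All levels of a gene and zone divide by the same H3 reads, only 9 for the body of PRE8, so the shared ranking is not independent agreement between marks.

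Upstream of the start codon 4 members had no nucleosome, and 21 to 24 of the others had enough reads. Their median K4me3 level was 1.24 against 0.82 over all genes, and their median K18ac level 1.24 against 0.70. The K4me3 excess of 0.42 had an interval of -0.18 to 0.71, which holds 0, and the K18ac excess of 0.54 one of 0.09 to 0.70. H3 reads were few there, so a gene passed the minimum more easily where its mark was high. RPN3 at -1.54, PRE7 at -1.45, PRE4 at -0.38, RPN9 at -0.18 and PRE3 at 0.58 in K4me3 were left out by it. As a share of all reads on the members, the 5′ zone held 58.3% of K4me3 (57.0 to 59.5, Wilson interval), 53.7% of K18ac, 39.5% of K79me3 and 29.9% of K36me3. In other genes those shares were 50.7%, 38.7%, 22.5% and 15.2%. The share of H3 was 39.6% in the members against 26.8% in other genes, and such shares move with gene length.

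The 3 longest members show the order of the marks nucleosome by nucleosome. Along RPN1, K4me3 reads were 19, 23, 44 and 51 at the nucleosomes centred at -1, 152, 313 and 468 bp, and 2 to 8 at every nucleosome from 1104 bp on. K36me3 reads at the same first 4 nucleosomes were 17, 26, 61 and 87, and later ones held 72 to 114. At 468 bp, where K4me3 had its peak, K36me3 had thus reached the range it held further on.

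Along RPN2, K4me3 stayed high longer, with 46 reads at 471 bp and 41 at 639 bp, and then 10 at 1036 bp. K18ac in RPN2 was down to 10 reads at 471 bp, against 37 at 168 bp, so it ended before K4me3 did. RPN3 kept 22 K4me3 reads at 1113 bp, where K36me3 held 94. A single nucleosome holds few reads, and steps of a few reads between neighbours are within counting error.

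**Figure D3:**
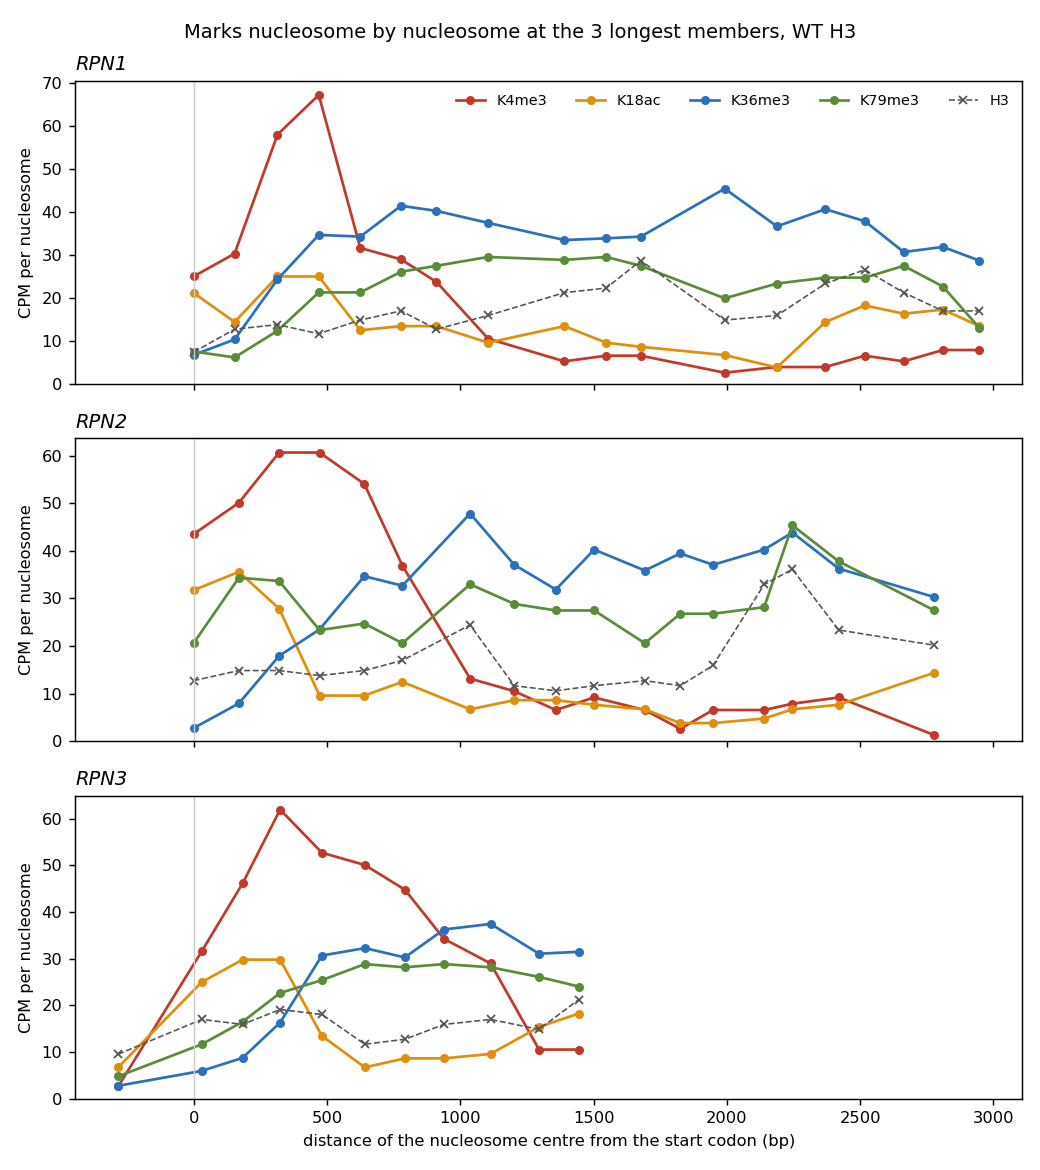
CPM of each mark and of H3 at every nucleosome of RPN1, RPN2 and RPN3 in WT H3, against the distance of its centre from the start codon. K4me3 peaks at 313 to 468 bp in RPN1 and fades by about 1104 bp, while K36me3 climbs over the same stretch and then stays high to the stop codon.

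bar1, the wild type of the deletion set, was read against the same H3 libraries. K4me3 had a 5′ median of 1.10 against 0.83 over all genes, with 30 of 31 members called higher, where 63.9% of all genes were. In the body it had 0.50 against -0.31, with 14 of 31 called higher, where 16% of all genes were. SCL1 at 2.12, RPN5 at 2.05 and RPN1 at 1.99 had the highest 5′ levels, and RPN7 at 0.30 the lowest. RPN12, the lowest in WT H3, was at 0.86, and PRE4, the highest there, at 1.40. The alpha ring ran from PRE10 at 0.64 to SCL1 at 2.12. The order of the members and the narrow range of the alpha ring in WT H3 were thus not repeated in bar1.

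K36me3 in bar1 was at -0.15 against -0.79 in the 5′ zone, with 10 of 31 called lower, where 58.3% of all genes were. In the body it was at 0.65 against 0.16, with 15 of 28 called higher, where 24.5% of all genes were. That body excess of 0.49 had an interval of -0.12 to 0.81, which holds 0. K18ac did not separate the members: it had 0.42 against 0.35 in the 5′ zone, with 14 of 31 called higher, where 35.9% of all genes were, and -0.35 against -0.21 in the body. The excess of K4me3 and K36me3 was thus seen in both wild types, and that of K18ac in WT H3.

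The other genes of the pathway had K4me3 and K36me3 nearer to the genome than the subunit genes had. A list of 23 genes held subunits left out of the rule, assembly chaperones, proteasome-binding proteins, ubiquitin shuttles, the Cdc48 segregase and its cofactors, polyubiquitin and RPN4. In their 5′ zones K4me3 had a median of 1.27 in WT H3 against 1.07 over all genes, and 21 of 23 were called higher, where 73.4% of all genes were. K36me3 had a median of -0.73 against -0.90 over all genes, and 12 of 23 were called lower, where 62.8% of all genes were. Among the 9 assembly chaperones, which help build the rings and the base and are not part of the finished complex, 8 were called lower in K36me3, where 62.8% of all genes were, with a median of -1.69 against -0.90 over all genes. NAS6, a chaperone of the base, had 15 K36me3 reads against 47 H3 reads, a level of -2.87. The chaperones' K4me3 median was 1.05 against 1.07 over all genes.

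The gene of the transcription factor itself, RPN4 (YDL020C, chromosome IV, 415113 to 416708), had K4me3 at 2.00 (1.46 to 2.64), K36me3 at 0.71 (0.18 to 1.32) and K18ac at -0.47 (-1.29 to 0.30) in its 5′ zone. UBI4, the polyubiquitin gene, had K4me3 at 1.85, K36me3 at 0.82 and K18ac at -0.33. Both had the 2 methyl marks in the upper range of the subunit genes and K18ac below all 31 of them.

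A second-step value is the log2 ratio of CPM plus 1 in a pair library to that in the Input library of its first antibody, within a strain. It says where the second antibody recovered a larger share of what the first had selected, and CPM removes the total yield. In WT H3, K4me3 material from the bodies of proteasome genes was rich in K36me3. The median was 1.14 against 0.47 over all genes, and 25 of 30 members were over 1.5-fold, where 45.1% of all genes were. In the 5′ zone it was -0.10 against -0.79, with 9 of 31 members called higher, where 8.55% of all genes were.

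RPN8, a lid subunit, had the highest body value of K4me3 then K36me3, 2.16 (1.44 to 2.87), with 25 reads after the K36me3 antibody and 58 in Input. RPT1 followed at 2.07 and SCL1 at 1.79. PRE4 at -0.19, PRE3 at -0.02 and PRE8 at 0.11 were lowest, on 3 to 5 pair reads each.

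The reverse order gave the same direction. K36me3 material from member bodies, taken through K4me3, had a median of 0.70 against -0.25 over all genes, with 19 of 31 members called higher, where 21.5% of all genes were. RPN10 at 1.56 (1.07 to 2.06), PUP3 at 1.42 and PRE1, a beta subunit, at 1.35 were highest. RPN1 at -0.86, RPN2 at -0.42 and PRE8 at -0.28 were lowest, and RPN1 and RPN2 are the longest members.

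Other pairs with K4me3 or K36me3 as second antibody also had higher medians in member bodies. K79me3 material taken through K4me3 gave 0.72 against -0.44, with 18 of 31 members called higher, where 20.2% of all genes were. K18ac material taken through K36me3 gave 1.24 against 0.28, with 21 of 29 called higher, where 38.8% of all genes were, though single genes had 0 to 14 pair reads at the ends of the range. K79me3 taken through K36me3 gave 0.50 against 0.07, with 12 of 31 called higher, where 14.3% of all genes were. K18ac taken through K4me3 gave -0.07 against -0.62, with 4 of 30 called higher, where 9.94% of all genes were. K36me3 taken through K79me3 gave -0.07 against -0.05, with no member called higher, where 1.77% of all genes were. Among pairs ending in K18ac, K79me3 taken through K18ac gave 0.38 against -0.39, with 12 of 30 called higher, where 22.7% of all genes were. K36me3 taken through K18ac gave 0.32 against -0.19, with 12 of 31 called higher, where 21.6% were. Both body excesses had intervals that hold 0, -0.34 to 1.33 and -0.21 to 1.08. Over the whole region these excesses were 0.76 (0.53 to 1.14) and 0.55 (0.09 to 0.78). K4me3 taken through K18ac gave -0.54 against -0.49 in the body.

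In bar1, K4me3 then K36me3 had a body median of 0.87 against 0.29, with 19 of 31 members called higher, where 29.5% of all genes were. K36me3 then K4me3 had 0.62 against -0.25, with 13 of 24 called higher, where 18.7% of all genes were. K18ac then K4me3, a library of 777828 reads against 186077 in WT H3, had a body median of 0.50 against -0.21, with 15 of 31 called higher, where 9.69% of all genes were. Over the whole region all 31 members lay above the all-gene median for that pair.

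A second antibody also recovers its own mark from H3-first material. With each value over the whole region divided by the same ratio in H3-first material of WT H3, K4me3 then K36me3 kept its excess over all genes, at 0.65 over 18 members against 0.71 undivided over 31. The excess of K36me3 then K4me3 shrank to 0.08, against 0.71 undivided. K18ac then K4me3 came to -0.38, against 0.52 undivided. K18ac then K36me3 came to -0.14 and K79me3 then K4me3 to -0.10, against 0.71 and 0.69 undivided, and K79me3 then K36me3 to 0.22, against 0.38. The H3-first libraries taken through K4me3 and K36me3 held only 12328 and 20193 reads. For K36me3 then K4me3, K18ac then K4me3, K18ac then K36me3 and K79me3 then K4me3, a high pair value at the members cannot be told apart from a high level of the second mark alone. That limit also holds for K18ac then K4me3 in bar1, whose values were not divided.

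**Figure D4:**
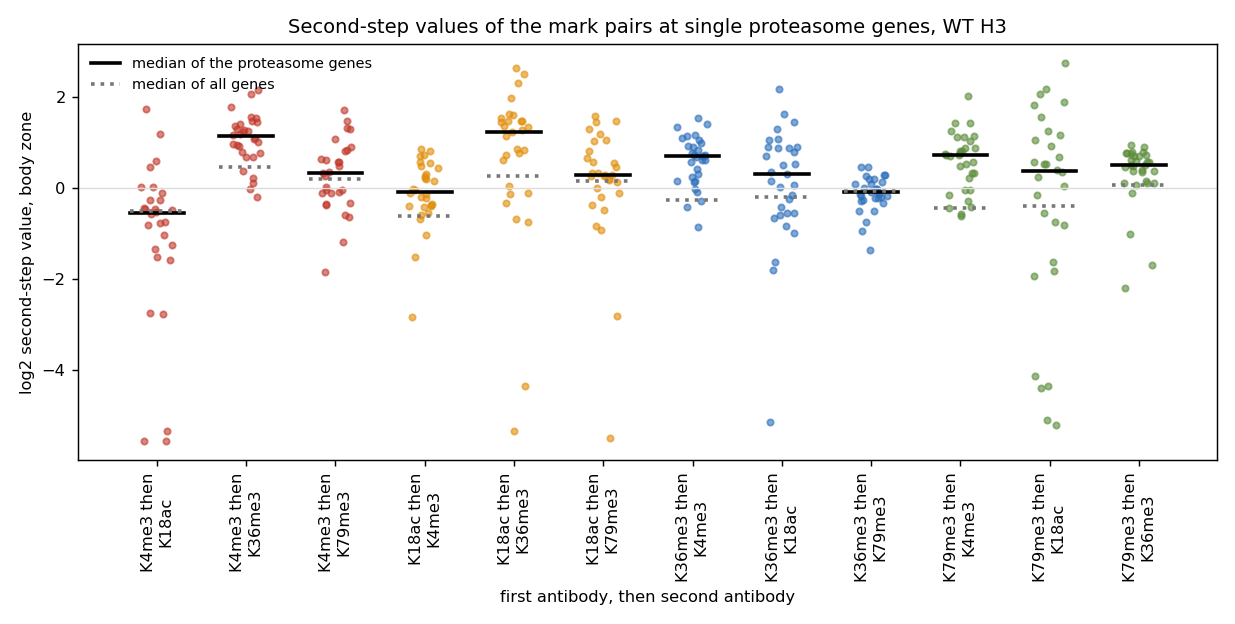
Second-step value in the body zone for the 12 ordered mark pairs in WT H3; each point is a proteasome gene with at least 20 reads, solid bars are their medians and dotted bars the medians of all genes. The solid bar lies well above the dotted bar for K4me3 then K36me3 (1.14 against 0.47) and K36me3 then K4me3 (0.70 against -0.25), and points near -4 or below are genes with 0 pair reads.

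A change is the log2 ratio of CPM plus 1 of a mark's Input library in a strain to that in its wild type. In set2, which lacks the K36 methyltransferase, K4me3 over all genes was higher in the body, with a median change of 0.22, and lower in the 5′ zone, at -0.39. The proteasome genes were lower in the 5′ zone as well, at -0.49, but had a body median of -0.12 over 30 genes. In the body 2 members were called higher, where 26.9% of all genes were, and 4 lower, where 9.33% were. In the 5′ zone 11 of 31 were called lower, where 32.3% of all genes were.

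PRE6 at -1.05 (-1.66 to -0.48), PRE3 at -1.03 and RPN5 at -0.74 had the lowest 5′ changes of K4me3 in set2. PRE10, an alpha subunit, at 0.25, RPT4 at 0.17 and SCL1 at 0.06 had the highest. By subcomplex, the body medians were -0.42 in the beta ring, -0.11 in the alpha ring, -0.08 in the lid, -0.03 in the ATPases and 0.19 in RPN1, RPN2 and RPN10.

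The 2 members with higher body K4me3 in set2 were PUP2, an alpha subunit, with 25 reads in set2 and 8 in bar1, a change of 1.06 (-0.08 to 2.47), and PRE7, a beta subunit, with 16 and 7 reads, a change of 0.62. PRE6 followed at 0.51. RPN10 was lowest, with 19 reads in set2 and 33 in bar1, a change of -1.29 (-2.22 to -0.47), then PRE3 at -0.80 and PRE5 at -0.71. In eaf3 PUP2 at 1.25, PRE6 at 0.97 and PRE7 at 0.71 were again the highest, and those values share the bar1 library, which held only 8, 10 and 7 body reads on the 3 genes. As the mean over the 4 combinations of K4me3 with a usable depth in both strains, PUP2 changed by 0.08 ± 0.70 (SD) in set2.

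The same 4 combinations gave the same side for the members as a whole. Their body medians less those of all genes averaged -0.44 ± 0.08 (SD over 4 combinations) in set2 and -0.24 ± 0.10 in eaf3, below 0 in 4 of 4 each time. The combinations include that Input library itself, so the count of 4 is not apart from the Input result. Combinations share cells and antibodies and are not replicates. In eaf3 the Input library of K4me3 gave a body median of -0.04 against 0.19 over all genes. There 3 of 31 members were called higher, where 25.3% of all genes were, and 2 lower, where 6.99% were. Its 5′ median was -0.38 in members and over all genes alike, with 5 of 31 called lower, where 30.1% of all genes were.

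With median-of-ratios size factors the eaf3 body medians moved to 0.07 against 0.30 over all genes for K4me3 and to 0.10 against 0.23 for K18ac, so the sign of the members' own change depends on the scaling.

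By distance, K4me3 between 500 and 750 bp changed by -0.38 (-0.53 to -0.22) in set2 at the members, with 712 reads in set2 and 640 in bar1, against -0.12 in other genes. Between 1000 and 1500 bp it changed by 0.16 (-0.10 to 0.41) against 0.47. Past 1500 bp, over RPN1 and RPN2, it changed by 0.75 (0.38 to 1.13) against 0.79, a difference within the interval. The 2 wild types differ by as much: bar1 against WT H3 gave a K4me3 body median of -0.20 in the members against 0.14 over all genes, and 5 of 31 were called lower, where 10.2% of all genes were. A gap of the size seen in set2 thus also lay between bar1 and WT H3, and its part in the set2 and eaf3 values was not tested.

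K18ac of the members was close to the genome in set2. The 5′ median was -0.35 against -0.34 over all genes, with 8 of 31 called lower, where 24.7% of all genes were, and the body median was 0.08 against 0.18, with 2 of 31 called higher, where 14.2% of all genes were. PRE7 at -1.05, PRE10 at -0.98 and PRE6 at -0.85 had the lowest 5′ changes, and RPN5 at 0.33 the highest. In the body PRE6 at -0.96 (-1.92 to -0.16) and RPN9 at -0.83 (-1.47 to -0.26) were lowest. Over 3 combinations they had -0.27 ± 0.67 (SD) and -0.03 ± 0.71. With size factors 2 of 31 were called higher in the body, where 22.8% of all genes were, and 2 lower, where 4.70% were. In eaf3 the 5′ median was -0.44 against -0.29, with 7 of 31 called lower, where 19.2% of all genes were. With size factors 4 of 31 were called lower, where 10.8% of all genes were. The eaf3 body median was -0.02 against 0.10, with 1 member called higher, where 9.81% of all genes were. With size factors 1 was called higher in the body, where 17.8% of all genes were, and 2 lower, where 4.18% were.

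The member called higher in the body of eaf3 by library totals was RPN2, the gene with the lowest body K18ac in WT H3. It had 204 K18ac reads in eaf3 and 163 in bar1, a change of 0.67 (0.37 to 0.98), and 178 reads in set2, a change of 0.73 (0.42 to 1.05). Over 4 combinations its change was 0.58 ± 0.08 (SD) in eaf3 and 0.56 ± 0.32 in set2. In H3K36R it had 241 reads against 106 in WT H3, a change of 0.95 (0.62 to 1.30), though 0.40 ± 0.47 over 5 combinations. That change divides by the same 106 reads that gave RPN2 its low level in WT H3. Its body level was also the lowest in bar1, at -1.31, on the 163 reads that its set2 and eaf3 changes divide by. Its low level and its changes are therefore not independent. RPN7 was highest in set2 at 0.76 (0.31 to 1.25), and had 0.45 in eaf3 and -0.21 in H3K36R. Over 3 combinations it had 0.91 ± 0.19 in set2, 0.46 ± 0.25 in eaf3 and 0.36 ± 0.56 in H3K36R.

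RPN1, the longest member, had a change of 0.26 in set2, 0.29 in eaf3 and -0.02 in H3K36R. Over 4 combinations it had 0.54 ± 0.23 in set2 and 0.27 ± 0.23 in eaf3, and over 5 combinations 0.24 ± 0.73 in H3K36R. The means over combinations thus did not set RPN2 apart from RPN1 and RPN7 in set2.

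Past 1500 bp, K18ac over RPN1 and RPN2 together changed by 0.56 (0.30 to 0.82) in set2 and by 0.56 (0.31 to 0.80) in eaf3, against 0.50 and 0.46 in other genes. H3K36R gave 0.62 (0.34 to 0.90) against 0.49. The change at the far end of the 2 longest subunit genes was therefore within its interval of that in other genes. In the first bin after the start codon the set2 change was larger at the members. Between 0 and 150 bp K18ac changed by -0.60 (-0.75 to -0.45), with 517 reads against 1199 in bar1, and by -0.41 in other genes. Over the whole 5′ zone the medians in set2 were -0.35 in the members and -0.34 over all genes. The first bin is given for set2 only.

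**Figure D5:**
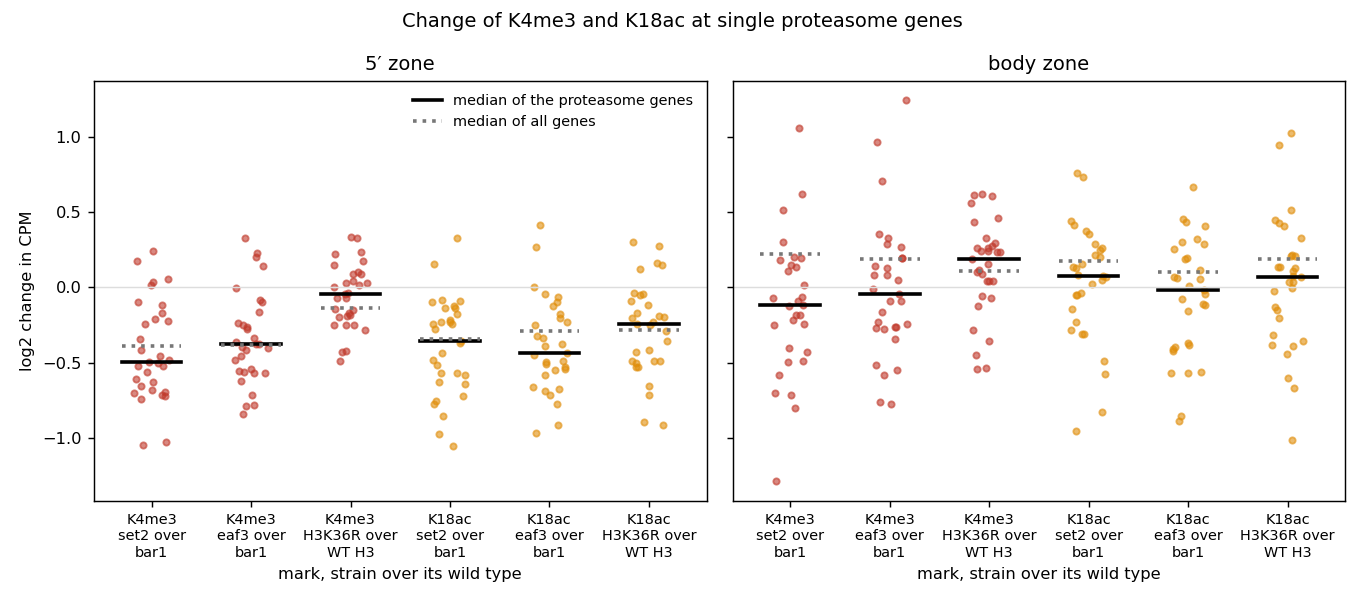
Log2 change of K4me3 and K18ac in set2 and eaf3 over bar1 and in H3K36R over WT H3; each point is a proteasome gene, solid bars are their medians and dotted bars the medians of all genes, with the 5′ zone left and the body right. In the body the solid bar for K4me3 in set2 lies at -0.12, below the dotted bar at 0.22, while for K18ac in set2 the bars lie at 0.08 and 0.18.

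H3K36R did not show the body gap of set2 in K4me3. Its body median was 0.19 against 0.11 over all genes, with 3 of 31 called higher, where 17% of all genes were. RPT1 and RPN8 at 0.62 and RPN7 at 0.61 were highest, and PRE8 and PUP3 at -0.54 and PRE7 at -0.45 were lowest. Over 5 combinations the members' difference from all genes averaged 0.01 ± 0.12 (SD). Past 1500 bp, over RPN1 and RPN2, K4me3 changed by -0.02 (-0.46 to 0.42) against 0.65 in other genes.

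K18ac in H3K36R had -0.24 against -0.29 in the 5′ zone, with 4 of 31 called lower, where 19.1% of all genes were, and 0.07 against 0.19 in the body, with 2 of 31 called higher, where 15.2% of all genes were. Those 2 were RPT1 at 1.03 (0.54 to 1.57) and RPN2. In the body 3 members were called lower by totals and 2 with size factors, where 4.34% of all genes were. K79me3 was at 0.27 against 0.19 in the 5′ zone, with 6 of 31 members called higher, where 13.9% of all genes were. RPN10 at 1.05 and RPN1 at 0.82 led, and RPN11 at -0.34 was lowest. Over 4 combinations, the Input library among them, the 5′ difference of K79me3 from all genes averaged 0.14 ± 0.04 (SD), above 0 in 4 of 4.

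The K36me3 antibody still recovered nucleosomes in H3K36R, with 434317 reads against 2509006 in WT H3, but from other positions. All 31 members were called higher in the 5′ zone, with a median of 1.60 against 1.71 over all genes, where 88.2% of all genes were called. In the body the median was 0.39 in the members against -0.62 over all genes. There 9 members were called higher, where 14.3% of all genes were, and 4 lower, where 51.1% were. PUP3 at 1.63, PRE5 at 1.54 and RPN10 at 1.17 were highest, and RPN11 at -1.40, RPN2 at -1.21 and RPN1 at -0.87 were lowest.

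Along the members the pooled K36me3 level of H3K36R was 1.35 between 0 and 150 bp, 1.92 between 300 and 500 bp, 0.97 between 750 and 1000 bp and -0.83 past 1500 bp. K4me3 of the same strain gave 1.39, 1.59, 0.75 and -1.81 in those bins, so the 2 libraries had a like shape up to 1000 bp. In set2 the K36me3 library held only 24149 reads. No member had over 5 reads there in the body among those that passed the minimum, so no change is given.

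K36me3 in eaf3 had a 5′ median of 0.20 against 0.04 over all genes, with 5 of 31 called higher, where 21.2% of all genes were. As a mean over combinations the 5′ difference of the members from all genes was -0.02, against 0.16 in the Input library. In the body it had 0.06 against 0.02, with 4 of 30 called higher, where 11.6% of all genes were. The highest body change, PRE5 at 2.67 (0.42 to 8.40), rests on 24 reads in eaf3 and 1 read in bar1.

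In H3K4R, which cannot carry K4 methylation, K36me3 was lower in the 5′ zone of the members, at -0.33 against -0.21 over all genes. Of 31 members 7 were called lower, where 15.7% of all genes were, and none higher, where 4.53% were. RPT3, a base ATPase, was lowest, with 73 reads in H3K4R and 118 in WT H3, a change of -0.77 (-1.24 to -0.36). PRE10 at -0.70 and PRE9, an alpha subunit, at -0.69 followed, and the alpha ring had a median of -0.56, the lowest of the groups. RPT5 at 0.04, PRE7 at -0.07 and PRE1 at -0.11 were highest. Over 4 combinations, the Input library among them, the members' difference from all genes averaged -0.16 ± 0.09 (SD), below 0 in 4 of 4.

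In the body of H3K4R, K36me3 had 0.03 against 0.02 and no member was called, where 3.04% of all genes were higher and 2.58% lower. K18ac in H3K4R was -0.05 against -0.13 in the 5′ zone. Its body median was -0.18 against 0.02, with 4 of 31 called lower, where 6.95% of all genes were. With size factors 2 of 31 were called lower, where 5.58% of all genes were. SCL1 at -0.85 (-1.49 to -0.26), RPN11 at -0.65 and RPT6 at -0.62 were lowest, and PRE8 at 0.64, RPN8 at 0.54 and RPN2 at 0.45 were highest.

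In H3K18R, K4me3 was at -0.19 against -0.10 in the 5′ zone, with 2 of 31 called lower, where 9.26% of all genes were. The 2 were PRE3 at -0.86 and RPN1 at -0.65. In the body it was at 0.06 against 0.13, with 4 of 31 called higher, where 14.3% of all genes were, and 2 lower, where 5.44% were. RPN7 at 0.88 (0.33 to 1.45), PRE1 at 0.76 and RPN8 at 0.73 were highest there, and PRE3 at -0.79 and PRE7 at -0.75 lowest. The shares of members called in K4me3 were thus near those of all genes.

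K36me3 in H3K18R was at -0.07 against -0.06 in the 5′ zone, where 5.65% of all genes were called higher and 10.7% lower. In the body it was at 0.03 against 0.01, where 2.34% were called higher and 2.43% lower. No member was called in either zone. K79me3 was at -0.13 against -0.06 in the 5′ zone, with 2 of 31 called higher, where 4.84% of all genes were, and 3 lower, where 8.44% were. RPN7 at 0.80 and RPN1 at 0.72 were the 2 higher, and PUP1 at -0.76 was lowest. In the body K79me3 was at 0.07 against 0.02, with 2 of 31 called higher, where 3.67% of all genes were, and 1 lower, where 2.59% were. RPN10 at 0.75 was highest and PRE10 at -0.78 lowest.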

How the data were processed

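The authors deposited raw counts, whole numbers of reads per nucleosome and library, with an atlas of nucleosome positions 151 bp long. Reads were aligned with Bowtie2 to sacCer3, per the submitters' processing notes. Its version, the treatment of duplicate reads and the way reads were assigned to nucleosomes were not given in the sources used here. Of 66360 atlas nucleosomes, 1328 had no counts and were not used. All 180 columns matched 1 library each by title.

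Nucleosomes were given to genes by their centre, with gene positions from RefSeq (R64) and the strand from the systematic name. Counts were summed per zone and scaled to CPM by library total, with a pseudocount of 1 CPM and a minimum of 20 reads in both libraries together. Level libraries under 20000 reads and pair libraries under 10000 were left out, and a combination entered a mean where at least 16 members passed. The combinations of a mark include its own Input library, so means over them are not independent of the Input value. Intervals of ratios are exact conditional binomial intervals at 95%. With 1 library per group no test was run. Of the steps, only the change of a mark was tested on simulated data, for body K4me3 in set2 against bar1.

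Alternatives covered the H3 reference, pseudocount, scaling, read minimum, fold, zones, background genes and combinations. In the main comparisons the members with the 3 highest and 3 lowest values were named. The values by nucleosome, those of UBI4 and NAS6, and those of RPN1, RPN7 and PUP2 given outside that rule were chosen after values were seen. The members and lists were chosen with earlier results of these data known. The Rpn4 promoter element was not analysed here. Python 3.11.15 with numpy 2.4.6, pandas 2.3.3, scipy 1.17.1 and matplotlib 3.10.9 was used.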

Additional observations from a re-analysis of the deposited data

How the results depend on the processing

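For 52 results (the members' median less that of all genes, or a 5′ share of reads) the alternatives gave 377 values, of which 362 stayed within the reported value's range (the order-statistic interval of the members' median, or the interval of the share), 13 lay outside it and 2, reported past 1.5-fold, turned their direction. Divided by the H3-first ratio, the excess of the members became -0.38 for K18ac then K4me3, -0.14 for K18ac then K36me3, -0.091 for K18ac then K79me3, 0.077 for K36me3 then K4me3 and -0.10 for K79me3 then K4me3. Undivided, all 5 lay above 0, and the 2 reported past 1.5-fold that turned were K18ac then K36me3 and K79me3 then K4me3. The cause was not tested. This alternative gave no value for pairs ending in K18ac, whose H3-first library held 4104 reads. As a mean over combinations, 5′ K4me3 in H3K36R gave 0.20, and with the body from 750 bp, K18ac in set2 gave -0.28. With the body limited to 500 to 1000 bp, chosen after seeing the data, WT H3 K4me3 gave 0.77. A 5′ zone of 400 bp gave shares of 41.9% for K4me3, 43.6% for K18ac, 16.1% for K36me3 and 26.8% for K79me3. An upstream zone of 200 bp gave 60.5% for K4me3 and 57.7% for K18ac, and leaving out nucleosomes in another reading frame gave 55.4% for K18ac. The body difference of K4me3 kept its sign under all 10 alternatives in set2 (-0.43 to -0.24) and in eaf3 (-0.25 to -0.14). With size factors, members called higher over the whole region were 17 (26 by totals) for K36me3 then K4me3 and 10 (2 by totals) for K79me3 then K36me3. At a call of 2-fold, 34 of 56 counts of called members moved by over 1.5 times. No paired analysis was possible because each group holds 1 library and the results come from no test. The planned search for the Rpn4 promoter element was not run. Depth limits single genes: with 10 reads or fewer in a library, as for body K4me3 of PUP2, PRE6 and PRE7 in bar1, intervals span more than 2 log2 units.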
